A study of Mus musculus with 9 samples.

Results

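The genes named Spata (spermatogenesis associated) and Tex (testis expressed) were followed through testis RNA of mice that lack protamine-2. A gene was included when its symbol in the deposited table began with Spata or Tex and continued with a digit, which picked 59 of the 38685 genes and loci listed, 28 Spata genes and 31 Tex genes. RNA came from testes, freed of the tunica albuginea, of male C57BL/6 mice of 3 genotypes with 3 males each: Prm2+/+ (wildtype), Prm2+/- (1 deficient allele) and Prm2-/- (Prm2-deficient). The deficient allele goes back to CRISPR/Cas9 editing in oocytes and is carried by every cell of the animal, and the age of the sequenced males is not given in the sources used here. Polyadenylated transcripts were read from their 3′ ends (QuantSeq), and whole testis was used, so that fewer cells of a type and less RNA per cell cannot be told apart in any value below.

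Protamines are small basic proteins that replace histones in the elongating spermatid and pack the paternal DNA, while transcription ceases. Spata and Tex are names given because transcripts were first noticed in testis, not a family by descent: their products include a component of the synaptonemal complex (Tex12), a protein of the bridges between germ cells (Tex14), an acrosome protein (Spata16), microtubule proteins of the axoneme (Tex37, Tex43) and proteins used in most cells, such as the ER-phagy receptor Tex264. A name therefore places a gene in the testis but says little about its step in spermatogenesis. The members are described below by the step or structure in which each is known to act.

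Of the 59 members, 57 had enough counts for a test. Tex28 was at 0 in 7 libraries, at 6.43 normalized counts in replicate 2 of Prm2+/+ and at 3.65 in replicate 2 of Prm2+/-. Spata5l1 was at 0 in 8 libraries and at 2.97 normalized counts in replicate 1 of Prm2+/-. A count of 0 allows up to 3 counts, which is 2.65 to 3.31 normalized counts depending on the library, so both genes lay near the limit of detection in all genotypes. The other 57 members were above 0 in all 9 libraries, with means over the 9 libraries from 12.6 normalized counts (Tex13c3) to 4739 (Spata33). Of these, 13 had a mean of 1000 or more, 33 a mean of 100 to under 1000 and 11 a mean under 100.

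The libraries held 3629929 to 4490411 recovered counts each. The targeted gene itself, Prm2, measured 33046 ± 5732 normalized counts (SD, n = 3) in wildtype, 31891 ± 2287 in Prm2+/- and 37810 ± 4344 in Prm2-/- testes, so its transcript level does not check the labels and the genotypes are those of the libraries as labelled. Markers of elongating spermatids summed to 214087 to 235889 normalized counts per library. Those of round spermatids ran from 5196 to 8082, both ends within Prm2-/- (replicates 3 and 2). Of 6 markers of epididymal epithelium, 4 (Adam28, Lcn9, Lcn5, Lcn8) were at 0 throughout, as was the Sertoli cell receptor Fshr. No marker of the 10 cell type lists was called in any comparison. Summed Sertoli cell markers were higher in replicate 3 of Prm2+/+ (1378) and in replicates 1 and 2 of Prm2-/- (1314 and 1337) than in the other 6 libraries (681 to 877), and summed spermatocyte markers were lowest in replicate 3 of Prm2+/+ (5008 against 5971 to 6809). Summed peritubular cell markers were 325, 301 and 293 in Prm2+/+, 277, 254 and 274 in Prm2+/- and 226, 271 and 246 in Prm2-/-, so that all Prm2-/- libraries lay below all Prm2+/+ libraries. Their part in the results below was not tested. Over all tested genes, replicate 3 of Prm2+/+ held the highest or the lowest of the 9 values in 49.5% of genes, more than any other library. Medians of gene groups are therefore also given without it where their direction turns. Fold changes stated below are given again where they move by over 1.5 times. Members without a stated fold change can move as well. For Tex12 the log2 fold change between Prm2-/- and Prm2+/+ went from -0.02 to -0.56 without that library.

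No Spata or Tex gene was called differentially expressed between any of the genotypes. Genes were tested with limma on the log2 scale (normalized count plus 1), and a call required 2 things, an adjusted p under 0.05 (Benjamini-Hochberg over all 14893 genes tested) and an LFC, the log2 fold change on that scale, past 0.5 up or down. Between Prm2-/- and Prm2+/+, 0 of 57 members were called, where 0.181% of all tested genes were called, and 3 members had an unadjusted p under 0.05 (5.26%, against 7.33% of all tested genes). In Prm2+/- against Prm2+/+, 0 members were called with a background of 0.0806%, and 3 had an unadjusted p under 0.05 with a background of 4.24%. Prm2-/- against Prm2+/- also gave 0 called members with a background of 0.175%, and 2 with an unadjusted p under 0.05 (3.51%, background 5.44%). With so few calls among all genes, 0 of 57 is near the background. By edgeR's quasi-likelihood test, 0 of 57 members were called in each comparison as well, and by DESeq2 0 of the 55 that had a p, since it gave none for Spata6 and Tex22. The 3 comparisons share their libraries pairwise and are not independent of each other.

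The 95% intervals give the size of change that these libraries leave room for. Between Prm2-/- and Prm2+/+, the interval of the LFC lay within 1 in either direction for 47 of 57 members (82.5%), against 61.7% of all tested genes. The 10 members with wider intervals were Tex22, Spata6, Tex261, Tex2, Tex36, Tex13c3, Spata13, Spata33, Tex13c2 and Tex12. For Prm2+/- against Prm2+/+ it was 47 members (82.5%, background 62.6%), and for Prm2-/- against Prm2+/- 49 members (86.0%, background 64.2%). A doubling or halving of transcript level was thus outside the interval for most members, while smaller changes remained within it. The median LFC of the members was -0.04 between Prm2-/- and Prm2+/+ (27 higher, 30 lower, median of all tested genes 0.02), -0.01 between Prm2+/- and Prm2+/+ (28 higher, 29 lower, all genes 0.01) and -0.05 between Prm2-/- and Prm2+/- (24 higher, 33 lower, all genes -0.01).

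**Figure D1:**
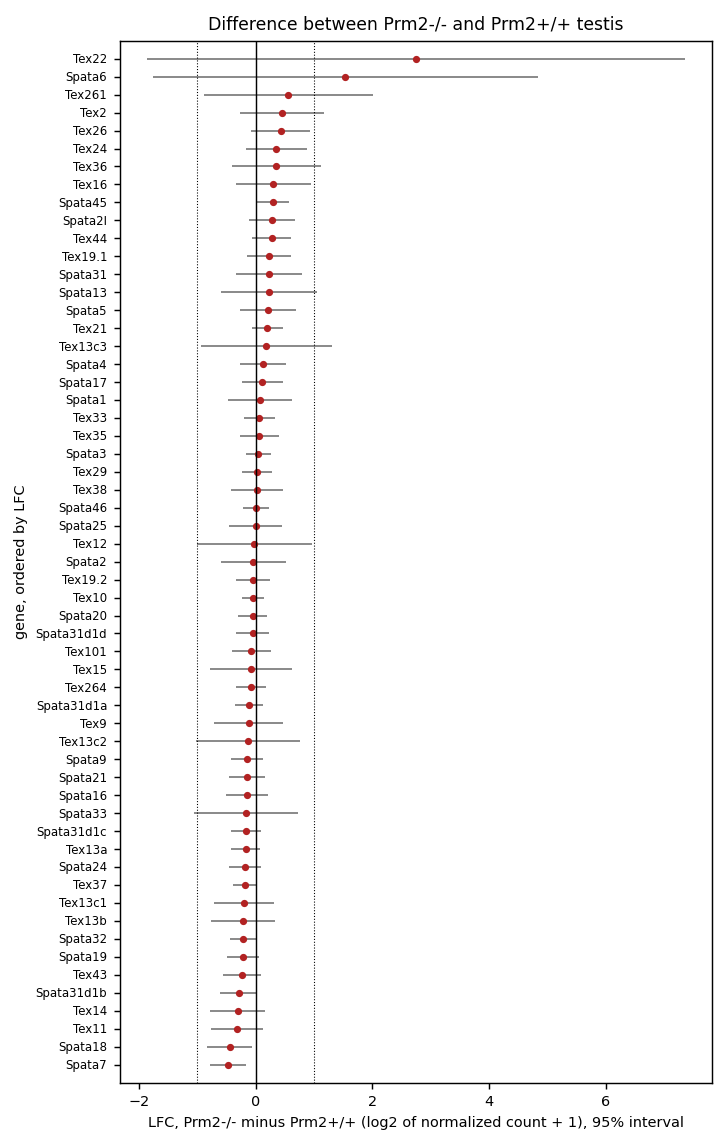
LFC between Prm2-/- and Prm2+/+ (x axis, log2 of the normalized count plus 1) for the 57 tested Spata and Tex genes (y axis, ordered by LFC). Points are fitted values, bars are 95% intervals, dotted lines mark -1 and 1, and 47 of the 57 intervals lie between the dotted lines.

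Counted library by library, the 3 Prm2-/- values all lay above the 3 Prm2+/+ values for 2 members (Tex19.1 and Tex44, 3.51%), where 6.92% of all tested genes did so. They all lay below for 7 members (12.3%, against 7.1% of all tested genes), namely Spata7, Spata18, Spata32, Spata31d1c, Tex11, Tex14 and Tex37. With 3 libraries a side, an exact permutation test of 1 gene cannot go below 0.1, so the separation of single genes is given as a description. Without replicate 3 of Prm2+/+ the counts were 9 above and 10 below, and over the single Prm2+/+ and Prm2-/- libraries left out they ran from 2 to 9 above and from 8 to 12 below. Removing a library also makes separation easier for every gene. The share of all tested genes is not given for these reduced sets, so no excess among the members is read from these counts.

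Spata7, which encodes a protein of the photoreceptor connecting cilium, had the smallest p of the members. The gene spans 98628157 to 98669815 of chromosome 12 (GRCm38, plus strand). It had 437, 373 and 369 normalized counts in Prm2+/+ (393 ± 38.2), 350, 368 and 431 in Prm2+/- (383 ± 42.6) and 245, 294 and 312 in Prm2-/- (284 ± 34.3, SD, n = 3 each). All 3 Prm2-/- libraries were below all 6 others, which overlapped each other. Its LFC was -0.47 against wildtype (SE 0.13, adjusted p = 0.503 in limma) and -0.43 against Prm2+/- (SE 0.13, adjusted p = 0.807 in limma), so the difference did not pass the test over all genes. Over all fits and tools the adjusted p between Prm2-/- and Prm2+/+ ran from 0.176 (DESeq2) to 0.892. Another annotated gene overlaps Spata7 on each strand, and reads were not separated between them here.

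Spata18 (Mieap), a protein of mitochondrial quality control, was highest in Prm2+/+. The gene spans 73651379 to 73679512 of chromosome 5 (plus strand). Its normalized counts were 2143, 2190 and 3323 in Prm2+/+, 1592, 1818 and 1639 in Prm2+/- and 1704, 1886 and 1923 in Prm2-/-. The 3 wildtype libraries were above all 6 others, and replicate 3 was far above the other 2. Against wildtype its LFC was -0.44 in Prm2-/- (SE 0.16, adjusted p = 0.624 in limma) and -0.57 in Prm2+/- (SE 0.16, adjusted p = 0.842 in limma). Without replicate 3 of Prm2+/+ these were -0.24 (adjusted p = 0.505 in limma) and -0.37 (adjusted p = 0.465 in limma), so that much of the size came from 1 library while the direction stayed.

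The other members with the smallest p between Prm2-/- and Prm2+/+ did not pass the test either. Spata45, which encodes a protein inside the microtubules of the sperm axoneme, had 869, 942 and 937 normalized counts in Prm2+/+, 1030, 934 and 973 in Prm2+/-, and 1244, 1226 and 935 in Prm2-/-. Replicate 3 of Prm2-/- lay within the wildtype range, and the LFC was 0.30 (SE 0.12, adjusted p = 0.649 in limma). Tex44 had 144, 122 and 168 in Prm2+/+, 120, 147 and 133 in Prm2+/- and 169, 184 and 169 in Prm2-/-. The Prm2-/- libraries of Tex44 were the 3 highest of the 9, by a narrow margin over replicate 3 of Prm2+/+. Its LFCs in Prm2-/- were 0.27 against Prm2+/+ and 0.39 against Prm2+/- (SE 0.14 for both, adjusted p = 0.719 and 0.878 in limma). The former was 0.16 without replicate 2 of Prm2+/+ and 0.39 without its replicate 3. Tex26 had 137, 118 and 78.5 in Prm2+/+, 183, 182 and 137 in Prm2+/- and 133, 147 and 159 in Prm2-/-. Its lowest value belonged to replicate 3 of Prm2+/+. The LFC between Prm2-/- and Prm2+/+ was 0.43 (SE 0.22, adjusted p = 0.719 in limma), and 0.20 without that library. Spata32 (LFC -0.22), Tex37 (-0.19), Spata31d1b (-0.29), Spata19 (-0.22) and Tex21 (0.20) had adjusted p-values between 0.692 and 0.727 in limma. The LFC of Tex21 was 0.11 without replicate 2 of Prm2-/-.

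In Prm2+/- against Prm2+/+ the other members with an unadjusted p under 0.05 beside Spata18 were Tex24 and Tex26. Tex24 had 124, 139 and 104 normalized counts in Prm2+/+, 242, 212 and 164 in Prm2+/- and 124, 207 and 147 in Prm2-/-. The heterozygous libraries lay above the wildtype libraries and overlapped the Prm2-/- libraries, and the LFC was 0.74 (SE 0.23, adjusted p = 0.842 in limma). For Tex26 the LFC was 0.61 (SE 0.22, adjusted p = 0.842 in limma), and without replicate 3 of Prm2+/+ it was 0.38. Of the last 500 bases of the Tex24 transcript, 15.1% of the 50-base stretches were shared with another gene, Gm6853, so its counts could be split between them.

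**Figure D2:**
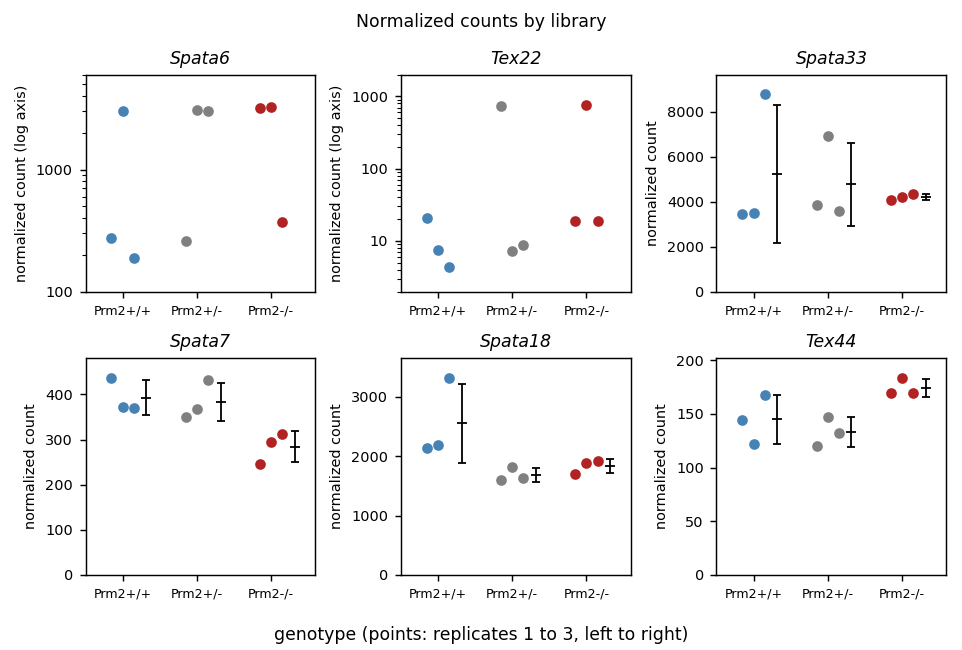
Normalized counts (y axis, logarithmic for Spata6 and Tex22) of 6 members in the 3 replicates of each genotype (x axis, replicates 1 to 3 from left to right), with mean and SD beside the points where the values did not fall on 2 levels. Spata6 (189 to 371 or 3022 to 3255) and Tex22 (4.42 to 20.9 or 738 to 768) split across genotypes, and the Prm2-/- points of Spata7 are the 3 lowest of 9.

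Spata6 and Tex22 stood apart because their values fell on 2 levels that cut across the genotypes. A gene was counted as having 2 levels when the largest step between its 9 sorted values was at least 2 on the log2 scale, each side spanned at most 50% of that step and the upper side held at least 20 normalized counts in every library. This held for 2 of 57 members (3.51%) and for 6.14% of all tested genes, a share of the members below that of the whole table.

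Spata6 is needed for the connecting piece that joins the sperm head to the tail. The gene spans 111719984 to 111829184 of chromosome 4 (plus strand). Its normalized counts were 275, 3022 and 189 in Prm2+/+, 261, 3053 and 3042 in Prm2+/- and 3212, 3255 and 371 in Prm2-/-. The high level was thus present in 1 wildtype, 2 heterozygous and 2 Prm2-/- libraries, and the low level in the other 4, with 11.4-fold between the means of both sides. The LFC of 1.54 between Prm2-/- and Prm2+/+ had an SE of 1.43 and an adjusted p of 0.784 in limma, and its interval ran from -1.75 to 4.83. It was 0.78 without replicate 3 of Prm2+/+ and 2.78 without replicate 2. Within the high side the values differed by little (3022 to 3255), whatever the genotype. Searching all tested genes for the same split of libraries gave 1 other gene, Ube2t on chromosome 1, a ubiquitin-conjugating enzyme of DNA repair, with 42.8, 268 and 55.2 in Prm2+/+, 31.6, 302 and 340 in Prm2+/- and 323, 308 and 31.7 in Prm2-/-. No gene had the opposite split. Ube2t and the neighbours named below were picked after their values were seen.

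Tex22 spans 113074502 to 113088917 of chromosome 12 (plus strand). Its normalized counts were 20.9, 7.50 and 4.42 in Prm2+/+, 738, 7.31 and 8.84 in Prm2+/- and 19.0, 768 and 19.0 in Prm2-/-. Only replicate 1 of Prm2+/- and replicate 2 of Prm2-/- were high, with 60.6-fold between the means of both sides. The LFC between Prm2-/- and Prm2+/+ was 2.75 with an SE of 2.0 (adjusted p = 0.754 in limma) and an interval from -1.87 to 7.37. Without replicate 2 of Prm2-/- it was 0.996, and DESeq2 gave 4.62 with no p. Atp2a2, the calcium pump of the ER on chromosome 5, had the opposite split: 49.4 and 49.7 in the 2 libraries with high Tex22, and 253 to 430 in the other 7. No gene other than Tex22 had its split.

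Neighbouring genes did not follow these levels. Pacs2 lies 101 bp from Tex22 and had 499 to 675 normalized counts in the 9 libraries. Agbl4, the only tested gene within 100 kb of Spata6, had 166 to 192 in replicates 1 and 2 of Prm2+/+ and in all Prm2-/- libraries and 49.5 to 64.3 in the other 4, a split unlike that of Spata6. None of the genes within 100 kb of Spata6 or Tex22 had 2 levels by the same rule. The cause of the levels was not tested, and no batch is named in the labels by which the libraries could be divided. Most members (56 of 59) were quantified on loci assembled by StringTie, and 15 members shared at least 1 stretch of 50 bases near the transcript end with another gene. For Spata6 that share was 0.361%. In position, 17 members overlap another listed gene, among them Spata7, Spata1, Spata4, Spata46, Tex9, Tex10, Tex11, Tex12, Tex14 and Tex26, and whether the counting used strand is not given in the sources used here.

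The 250 bases upstream of the RefSeq start (GRCm38.p6) are shown for Spata6, which had 2 levels, and for Spata7 and Spata18, the members with the smallest p. Capitals mark a CRE half-site (TGACG or its complement CGTCA), the core to which factors of the CREM family bind, CREM being a main activator of genes in round spermatids. Coordinates are chr4:111719760-111720009, chr12:98627892-98628141 and chr5:73651130-73651379, all on the plus strand.
Spata6: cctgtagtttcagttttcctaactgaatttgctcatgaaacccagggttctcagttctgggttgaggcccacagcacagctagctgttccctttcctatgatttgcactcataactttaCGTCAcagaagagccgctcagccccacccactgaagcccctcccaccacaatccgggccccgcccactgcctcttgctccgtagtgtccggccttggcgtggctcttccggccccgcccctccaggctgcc
Spata7: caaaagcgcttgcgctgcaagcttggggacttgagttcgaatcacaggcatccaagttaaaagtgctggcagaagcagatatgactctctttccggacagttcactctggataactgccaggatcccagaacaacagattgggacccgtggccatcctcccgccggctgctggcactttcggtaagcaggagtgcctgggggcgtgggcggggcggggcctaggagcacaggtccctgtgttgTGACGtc
Spata18: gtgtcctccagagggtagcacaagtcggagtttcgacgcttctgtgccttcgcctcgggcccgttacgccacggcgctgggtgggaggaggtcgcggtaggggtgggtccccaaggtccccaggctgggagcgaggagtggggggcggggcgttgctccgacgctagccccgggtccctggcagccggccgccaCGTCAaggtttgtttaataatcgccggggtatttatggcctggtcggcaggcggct
Each of the 3 windows held 1 such half-site, beginning 131, 7 and 56 bases before the start in that order. The members had 59 windows, which belong to 50 of them. A half-site was in 18.6% of these windows (10 of the 50 members), against 17.8% of the 32851 windows of all genes. The full site TGACGTCA was in 0 of the members' windows (1.55% of all windows). The half-site of the X-box (GTTGCC or its complement GGCAAC), which RFX factors bind, was in 16.9% of the members' windows and in 10.4% of all. The members' windows with it belong to 8 of the 50 members. These shares describe letters in a window and not binding.

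Of the genes of the sperm head and of the approach to the egg, all 5 were tested and 0 were called in any comparison. The median LFC between Prm2-/- and Prm2+/+ was 0.01 (3 higher, 2 lower), and over the single Prm2+/+ and Prm2-/- libraries left out it ran from -0.15 (without replicate 3 of Prm2+/+, 2 higher, 3 lower) to 0.03. Spata16, whose loss leads to round-headed sperm without an acrosome, had 1214, 1320 and 1088 normalized counts in Prm2+/+, 1162, 1268 and 947 in Prm2+/- and 1161, 1225 and 894 in Prm2-/-. Replicate 3 was lowest in each genotype and the genotypes overlapped. Spata46, a protein of the nuclear envelope that shapes the head, had 886, 789 and 906 in Prm2+/+, 1001, 892 and 1069 in Prm2+/- and 887, 900 and 813 in Prm2-/-. Tex101, a germ cell surface protein required for the ADAM3 route to the oviduct, had 562, 602 and 728, then 573, 637 and 800, then 571, 630 and 590 in the same order. Neither gene separated the genotypes. Spata1 had 818, 914 and 470 in Prm2+/+, against 634 to 907 in the other 6 libraries, and its low value belonged to replicate 3. The fifth gene, Tex38, a partner of the palmitoyltransferase Zdhhc19, ranged from 133 to 222 with an LFC of 0.02, which was -0.15 without that replicate. Between Prm2-/- and Prm2+/- all 5 were lower, with LFCs from -0.23 to -0.04, and 0 of them had an unadjusted p under 0.05.

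Genes of the tail, its microtubules and its mitochondrial sheath had a median LFC of -0.17 between Prm2-/- and Prm2+/+ (4 higher, 5 lower, 0 of 9 called). Without replicate 3 of Prm2+/+ the median turned to 0.14 (5 higher, 4 lower), and the gene in the middle, Spata33, went from -0.17 to 0.28. Spata33, which ties calcineurin to mitochondria in the midpiece, had 3433, 3488 and 8782 normalized counts in Prm2+/+, 3858, 6906 and 3584 in Prm2+/- and 4077, 4195 and 4332 in Prm2-/-. The Prm2-/- libraries were close together while 1 wildtype and 1 heterozygous library lay far above the rest, so the SD was 3073 in Prm2+/+, 1844 in Prm2+/- and 127 in Prm2-/-. Its closest annotated neighbour, Chmp1a at 69 bp, had 271 to 427. Spata19, a protein of the mitochondrial sheath, had 3165, 2993 and 3965 in Prm2+/+, 2986, 3018 and 3557 in Prm2+/- and 2776, 2846 and 3003 in Prm2-/-. Its LFC went from -0.22 to -0.10 without replicate 3 of Prm2+/+. Tex33, a microtubule protein of the axoneme, had 2336, 2316 and 2724, then 2523, 2543 and 2122, then 2336, 2488 and 2906 from Prm2+/+ to Prm2-/-. Its genotypes overlapped throughout. Tex37 and Tex43, both also within the axonemal microtubules, had LFCs of -0.19 and -0.23, and Spata17, an IQ-motif protein of the axoneme, had 0.11. Without that library Tex43 was at -0.07 and Spata17 at 0.22.

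The Spata31 family, proteins of spermatids, is encoded by related genes on chromosome 13. Between Prm2-/- and Prm2+/+ it gave 1 higher and 4 lower members (median LFC -0.12, 0 of 5 called). It gave 0 higher and 5 lower without replicate 3 of Prm2+/+ (median -0.10). Without replicate 2 of Prm2+/+ there were 2 higher and 3 lower (median -0.15). Spata31d1b had 617, 558 and 689 normalized counts in Prm2+/+, 591, 569 and 538 in Prm2+/- and 443, 478 and 612 in Prm2-/-. Its highest Prm2-/- library overlapped the wildtype range. Spata31 had 504, 631 and 318, then 597, 538 and 432, then 526, 611 and 507 in the same order, with its lowest value in replicate 3 of Prm2+/+. Spata31d1a ranged from 208 to 255 and Spata31d1d from 206 to 259 over the 9 libraries. Spata31d1a, Spata31d1b and Spata31d1d lie within 16 kb of each other, and 41.5% of the 50-base stretches at the end of the Spata31d1b transcript also occur in Spata31d1a, so their split of counts is uncertain. Spata31d1c, with 194, 176 and 186 in Prm2+/+ and 148, 171 and 175 in Prm2-/-, separated by less than 1 normalized count.

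Genes of meiosis and of germline genome defence gave 1 higher and 5 lower (median LFC -0.06, 0 of 6 called). Without replicate 2 of Prm2-/- there were 3 higher and 3 lower (median -0.12). Tex15, which takes part in the silencing of transposons in fetal germ cells, had 258, 327 and 335 normalized counts in Prm2+/+, 299, 262 and 274 in Prm2+/- and 194, 484 and 256 in Prm2-/-. The lowest and the highest value of Tex15 both belonged to Prm2-/-. Tex14, a protein of the intercellular bridge, had 219, 150 and 177 in Prm2+/+, 227, 164 and 138 in Prm2+/- and 146, 143 and 148 in Prm2-/-. The Prm2-/- libraries differed by little (145.6 ± 2.39, SD, n = 3), just below the lowest wildtype library, and the LFC was -0.30 (SE 0.20, adjusted p = 0.751 in limma), or -0.16 without replicate 1 of Prm2+/+. Tex11, an X-linked gene of meiotic synapsis and crossover formation, had 42.8, 48.2 and 64.1 in Prm2+/+ and 41.7, 38.6 and 41.2 in Prm2-/-, with an LFC of -0.33 (SE 0.19, adjusted p = 0.740 in limma) that was -0.16 without replicate 3 of Prm2+/+. Tex19.2 ranged from 203 to 276 and Tex19.1, which binds the ubiquitin ligase Ubr2 and restrains retrotransposons, from 71.8 to 107. Tex12, of the central element of the synaptonemal complex, had 38.01, 33.2 and 11.05 in Prm2+/+ and 21.3 to 32.7 in the other 6 libraries.

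Members with functions in most cells gave 5 higher and 5 lower between Prm2-/- and Prm2+/+ (median LFC 0.09, 0 of 10 called). Without replicate 3 of Prm2+/+ the median turned to -0.05 (3 higher, 7 lower). Spata7, described above, was placed among these 10, and it alone had an unadjusted p under 0.05 in limma in this comparison. Tex2, a protein of lipid transfer at the ER, had 1081, 1091 and 446 normalized counts in Prm2+/+, 996, 1019 and 940 in Prm2+/- and 1104, 1140 and 1080 in Prm2-/-. Apart from replicate 3 of Prm2+/+ its values lay between 940 and 1140, and without that library its LFC went from 0.46 to 0.03. Tex10, a subunit of a complex of ribosome maturation, was the steadiest member, with 336, 362 and 346, then 354, 357 and 338, then 343, 319 and 347, a coefficient of variation (CV) of 3.76% over the 9 libraries. Tex9 had 197, 287 and 197 in Prm2+/+, 267, 218 and 144 in Prm2+/- and 214, 232 and 174 in Prm2-/-. Neither gene differed between genotypes beyond its spread. Tex261, of the ER to Golgi route, ranged from 9.64 to 102 normalized counts, and its CV of 59.5% was exceeded only by those of Tex22 and Spata6 among the 57 members. Its genotypes overlapped. Tex264 ranged from 173 to 212.

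The remaining 23 members, for which no step was assigned, had 22 tested and 0 called, 13 higher and 9 lower between Prm2-/- and Prm2+/+, with a median LFC of 0.04 that turned to -0.02 without replicate 1 of Prm2+/+. Spata4 had 4469, 4231 and 2764 normalized counts in Prm2+/+, 4024, 4495 and 4821 in Prm2+/- and 4053, 4032 and 4214 in Prm2-/-. Spata24 had 3493, 3415 and 4618, then 3382, 3232 and 3730, then 3267, 3355 and 3492 in the same order. Replicate 3 of Prm2+/+ was lowest of 9 for Spata4 and highest for Spata24. For Spata24 the genotypes overlapped in the other 8 libraries. For Spata4 replicates 1 and 2 of Prm2+/+ lay above all Prm2-/- libraries, narrowly (4231 against 4214), and Prm2+/- overlapped both. The LFC of Spata4 between Prm2-/- and Prm2+/+ went from 0.13 to -0.09 without replicate 3 of Prm2+/+. For Spata24, 33.7% of the 50-base stretches near its transcript end also belong to a second annotated gene of that name in capitals. Spata21 had 2237, 2126 and 3040, then 2166, 2112 and 2342, then 2057, 2195 and 2342, again with replicate 3 of Prm2+/+ highest. Spata3 was even, from 1736 to 2147 (CV 6.79%).

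The same library thus held the extreme value of many members. Replicate 3 of Prm2+/+ was the highest of 9 in 14 members and the lowest in 15, together 50.9% of the 57, close to the 49.5% of all tested genes. It lay more than 0.5 on the log2 scale from the median of the 9 libraries in 17 members (29.8%, all tested genes 33.1%). Among its low values were Tex36 with 201 against 434 to 632 in the other 8 libraries, and Tex26 with 78.5 against 118 to 183. Its high values included Spata33, Spata18, Spata25 (366 against 207 to 295) and Tex11. The next library was replicate 3 of Prm2+/-, extreme in 29.8% of members and 24.3% of all tested genes, and the lowest share was that of replicate 2 of Prm2+/- (3.51% of members).

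**Figure D3:**
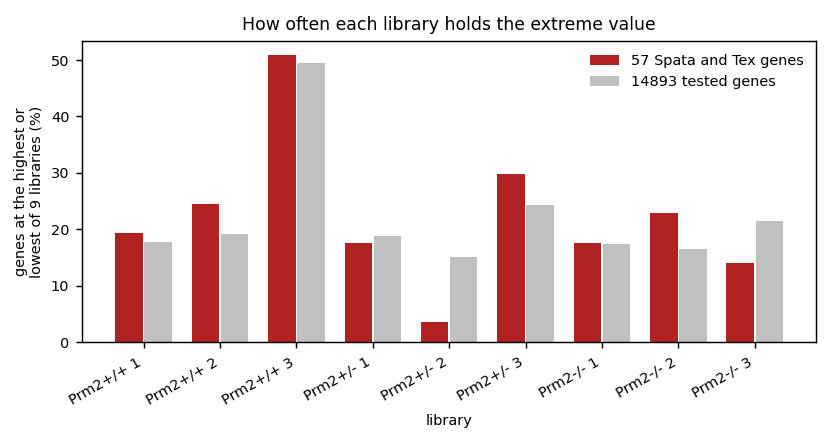
Share of genes (y axis, %) for which each library (x axis) held the highest or the lowest of the 9 values, for the 57 tested Spata and Tex genes and for the 14893 tested genes. Replicate 3 of Prm2+/+ holds 50.9% of the members' extremes and 49.5% of those of all genes.

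**Figure D4:**
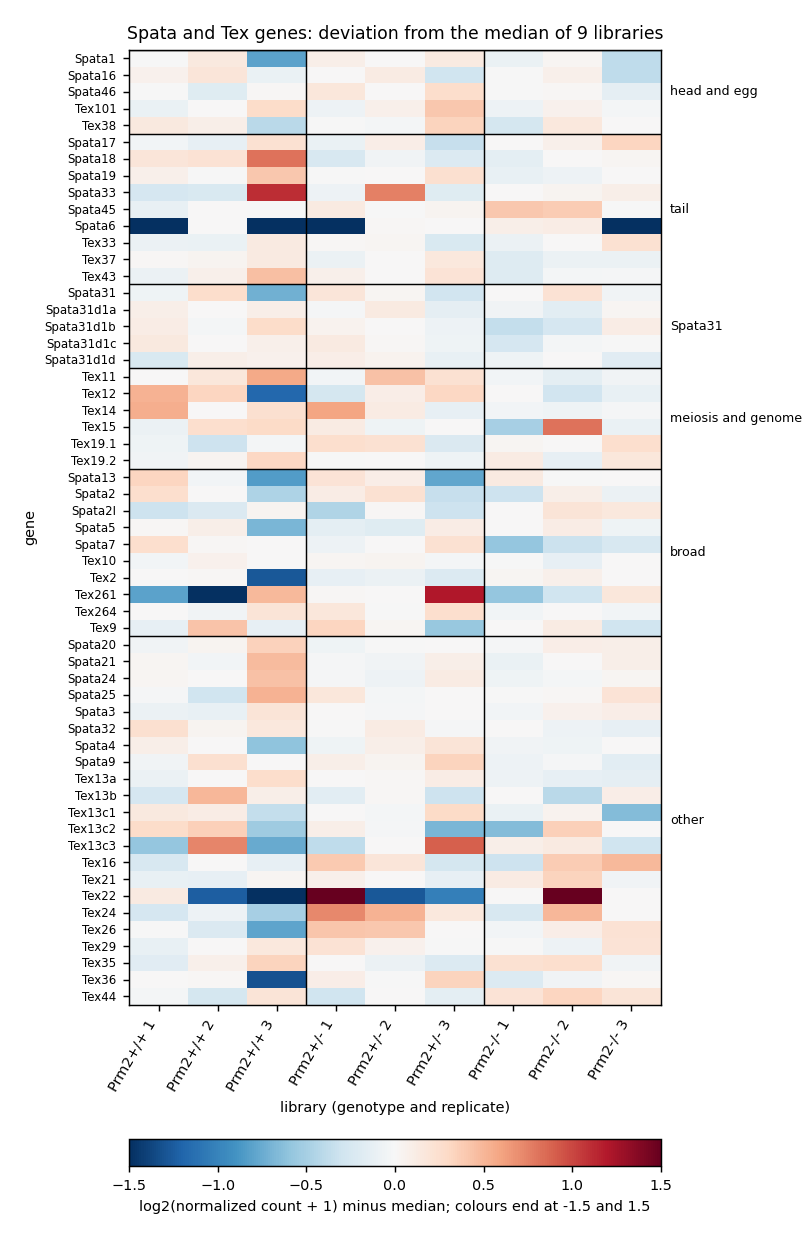
Deviation of each library (x axis) from the median of the 9 libraries on the log2 scale (colour, red above and blue below) for the 57 tested members (y axis), grouped by step or structure. Spata6 and Tex22 change between libraries of the same genotype, and replicate 3 of Prm2+/+ is the column with the most extreme values (29 of 57 members).

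Spread among replicates was widest in Prm2+/+. The median CV of the members was 15.8% in Prm2+/+, 10.3% in Prm2+/- and 8.99% in Prm2-/-, and over all tested genes it was 20.8%, 14.8% and 13.6%. Within Prm2+/+ replicate 3 stood out. The members' median distance from the median of the 9 libraries was 0.31 (log2) there. It was 0.09 in replicates 1 and 2, and 0.08 to 0.09 in the Prm2-/- libraries. Over all 9 libraries the CV exceeded 30% in 6 members (10.5%, all tested genes 31.7%), which were Tex22, Spata6, Tex261, Tex13c3, Spata33 and Tex12, and it was under 10% in 14.

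By position, 8 of 59 members (13.6%) lie on the X chromosome, against 3.75% of all genes and loci listed with a position. Of the 7 that were tested (Tex11, Tex13a, Tex13b, Tex13c1, Tex13c2, Tex13c3, Tex16), 2 were higher and 5 lower between Prm2-/- and Prm2+/+, with a median LFC of -0.17 (-0.02 without replicate 2 of Prm2+/+) and 0 called. The 6 members on chromosome 1 were all higher (median LFC 0.09, 0 called), where 52.9% of all tested genes were higher. Their median was 0.21 without replicate 3 of Prm2+/+ and 0.05 without replicate 2 (4 higher, 2 lower). Positions were examined after the values were known. Within 100 kb of each other lie 7 members in 5 pairs, among them Tex19.1 and Tex19.2, and Spata33 and Spata2l. Spata33 and Spata2l, 7755 bp apart, did not share the high values of Spata33: Spata2l had 37.1, 39.7 and 47.5 in Prm2+/+, 33.6, 46.6 and 37.1 in Prm2+/- and 46.2, 52.8 and 51.7 in Prm2-/-.

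Genes whose products are known to work with members, or with Spata22, which is not among the 59 members, were tested in the same fit. Of 28 such partners listed, 26 were found and 25 tested. In each comparison 0 were called, where 0.0806% to 0.181% of all tested genes were. Between Prm2-/- and Prm2+/+, 11 were higher and 14 lower (median LFC -0.04, or -0.08 without replicate 3 of Prm2+/+). Where 7.33% of all tested genes had an unadjusted p under 0.05, 2 of the 25 partners did. These were Meiob, the meiotic partner of Spata22 (not analysed here), with an LFC of -0.54 (adjusted p = 0.590 in limma) that was -0.36 without replicate 2 of Prm2-/-, and Wdr18, a partner of Tex10, with an LFC of -0.32 (adjusted p = 0.673 in limma). The median LFC was -0.05 in Prm2+/- against Prm2+/+ (10 higher, 15 lower) and -0.05 in Prm2-/- against Prm2+/- (12 higher, 13 lower).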

How the data were processed

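Testis RNA of 9 males (3 per genotype) was analysed from 1 deposited table. According to the methods and the labels' processing notes, the authors trimmed the 50 bp reads with Trim Galore 0.4.5, mapped them to GRCm38 (Ensembl 89) with HISAT2 2.1, quantified with StringTie 1.3.3, prepared gene counts with its script, removed pseudogenes and normalized with DESeq2. The deposited signal is the authors' normalized count, each library's counts divided by 1 size factor. All values (100%, tolerance 1e-06) were whole multiples of 1 step per library, from which counts were recovered, a weaker sign in replicate 1 of Prm2+/-, whose step was close to 1. The script computes counts from transcript coverage and a set read length, which is not given in the sources used here, and recovered counts may differ in scale from reads. Depth was 3629929 to 4490411 counts per library, and the limits given for a count of 0 cover counting error alone. 0 columns lacked a sample.

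Genotypes were compared with limma 3.58.1 (lmFit, eBayes with trend, R 4.3.3) on log2(normalized count + 1), a scale that understates changes of low genes, in the 14893 genes kept by filterByExpr on recovered counts. All 9 libraries entered with genotype as the only term. edgeR 4.0.16 and DESeq2 1.42.0 on recovered counts, other scalings, pseudocounts, filters, sample sets, a replicate block and leaving out each library were alternatives. Positions came from GENCODE M21 (GRCm38), which matched all 59 members, and promoter windows from RefSeq, found for 50 members.

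Members with 2 levels, the 10 smallest p between Prm2-/- and Prm2+/+ and any called member were chosen for full statistics. From the test, only the LFC and a range of adjusted p are printed for Spata32, Tex37, Spata31d1b, Spata19 and Tex21. Up to 4 members of each role list with the highest mean are given by library, and other genes were named after their values were seen. The members, role lists, markers and partners were chosen with earlier results of these data known. The same-numbered libraries of different genotypes had correlated deviations between -0.04 and 0.04, so the numbers were not treated as pairs. Columns of descriptions and positions in the table were not used as measurements.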

Additional observations from a re-analysis of the deposited data

How the results depend on the processing

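In 19 alternatives per comparison (scaling, pseudocount, filter, replicate block, edgeR, DESeq2, only the 6 samples compared, each library left out), 0 members were called in each (DESeq2 gave no p for Spata6 and Tex22 on the 9 libraries), with a lowest adjusted p of 0.138 (DESeq2 on 6 samples, Prm2-/- against Prm2+/-). Members with an unadjusted p under 0.05 ran from 1 to 6 between Prm2-/- and Prm2+/+. The share of all tested genes is not given for these alternatives, so no excess among the members is read from that range. With the replicate number as a block, 0 members were called, and the calls over all genes went from 27 to 15 between Prm2-/- and Prm2+/+, from 12 to 6 and from 26 to 14 in the other 2 comparisons. Over all genes DESeq2 called 131, 59 and 107, and a minimum of 10 counts in every library left 9, 1 and 11.

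Of 394 alternative LFCs of the members chosen for full statistics, 7 changed sign, all on leaving out 1 library and all in the 2-level genes. Over the single libraries left out, the LFC of Tex22 ran from -0.15 to 3.09 for Prm2+/- against Prm2+/+ and from -0.97 to 2.90 for Prm2-/- against Prm2+/-, and that of Spata6 from -0.96 to 1.27 for Prm2-/- against Prm2+/-. Over all alternatives Tex22 reached 4.52 (DESeq2) for Prm2+/- against Prm2+/+ and ran from 0.996 to 4.62 for Prm2-/- against Prm2+/+. The sign followed which libraries held the high level. The members' median LFC between Prm2-/- and Prm2+/+ ran from -0.04 to 0.02. Without replicate 3 of Prm2+/+, an alternative chosen after the data were seen for gene groups and further members, the LFC between Prm2-/- and Prm2+/+ turned to -0.15 for Tex38 and to 0.28 for Spata33. Leaving out single Prm2+/+ or Prm2-/- libraries, chosen after the data were seen, gave 2 to 9 members with all Prm2-/- libraries above Prm2+/+ and 8 to 12 with all below. Separation becomes easier for every gene in such sets, and no excess among the members is read from these counts. The 2 members with 2 levels remained 2 at a step of 1.5 or 3 and without each library. With 3 males per genotype, changes of the sizes within the intervals given above remain possible. These intervals are not limits of detection. Spata7 was not called although its interval between Prm2-/- and Prm2+/+ (-0.78 to -0.16) left out 0.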
